A study of Rattus norvegicus with 28 samples.

Results

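Genes for immediate early transcription factors were followed in neural progenitor cells exposed to spinal cord or kept in culture. They are Fos (ENSRNOG00000008015), Jun (ENSRNOG00000026293), Junb (ENSRNOG00000042838), Egr1 (ENSRNOG00000019422) and Atf3 (ENSRNOG00000003745). These 5 genes were picked by identifier among 32545 rows of the deposited table, for their known function and not by a threshold on their values. The deposited table lists identifiers only, and the symbols were given with the choice of genes. RNA was sequenced from 28 rat libraries in 7 groups of 4, all labelled as neural progenitor cells. Progenitors exposed to injured cord and to cord with no injury in its label, called uninjured here, were each sampled at 2, 3 and 4 weeks, and the seventh group stayed under culture conditions. The study's title concerns recovery after progenitor transplantation into injured cord. The labels give no strain, age, route of exposure or event from which the weeks count. They also leave unsaid whether cells were parted from host tissue, and whether libraries of a group stem from different animals. A p-value here is thus set against differences among libraries of a group, and these may be technical.

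Immediate early genes are transcribed within minutes of a stimulus, without the need for new protein synthesis. Fos, Jun and JunB carry a basic region and a leucine zipper and pair into the AP-1 dimers that bind DNA. Fos must pair with a Jun protein, whereas Jun can also pair with itself and JunB often acts as a weaker activator than Jun. Atf3 is a related leucine zipper factor of the stress response that can pair with Jun proteins, and Egr1 is a zinc finger factor induced by growth factors and by neuronal activity. In the nervous system Fos and Egr1 are used as marks of recent neuronal activity, and Jun and Atf3 are known for their rise in neurons whose axons were cut.

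Promoters were matched by symbol in RefSeq for 2 of the 5 genes, Egr1 and Junb. Both are shown because the 5 genes were all higher in cord groups than in culture, and because serum response elements (CArG boxes) and cyclic AMP response elements are the textbook switches of this class. Whether such elements had a part in that difference was not tested. Each sequence runs from 250 bases before the start site to 50 bases from it, on the GRCr8 build and the plus strand, at chr18:26736828-26737127 for Egr1 and chr19:40080876-40081175 for Junb. Capitals mark CArG boxes and the cyclic AMP half-site TGACG on either strand.
Egr1: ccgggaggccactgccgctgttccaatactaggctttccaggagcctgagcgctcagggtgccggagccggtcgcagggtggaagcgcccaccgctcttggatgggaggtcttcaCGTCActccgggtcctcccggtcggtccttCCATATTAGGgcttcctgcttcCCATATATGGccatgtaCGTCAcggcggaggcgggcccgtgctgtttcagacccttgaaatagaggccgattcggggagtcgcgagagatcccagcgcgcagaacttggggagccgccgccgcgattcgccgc
Junb: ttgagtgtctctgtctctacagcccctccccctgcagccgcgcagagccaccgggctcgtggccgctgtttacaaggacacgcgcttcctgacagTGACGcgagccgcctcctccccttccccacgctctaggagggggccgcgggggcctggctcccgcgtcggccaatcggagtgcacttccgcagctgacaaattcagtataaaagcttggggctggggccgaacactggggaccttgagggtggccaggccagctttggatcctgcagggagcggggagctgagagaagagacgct
The Egr1 window held 2 CArG boxes, beginning at bases 146 and 168 of the window, and 2 copies of TGACG, both on the minus strand. The Junb window held no CArG box and 1 copy of TGACG, which begins at base 96 of the window. Of 33469 promoter windows of this length, 1.64% held a CArG box and 21.2% held TGACG. Neither window held the full cyclic AMP element TGACGTCA (1.83% of all windows), the AP-1 motif TGANTCA (7.33%) or the Egr motif GCGNGGGCG (4.98%), all searched on both strands. TGACG lies within TGACGTCA. A match is a stretch of letters and not a measured binding site.

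Library totals set how well the 5 genes were measured. The 8 week 2 libraries held 84532 to 446331 counts and the other 20 held 2605188 to 6908508. The lowest count of any of the 5 genes in the libraries analysed was 19, for Atf3 in injured week 2 replicate 1, and the next lowest was 56, for Junb in the same library. In injured week 3 replicate 3, 2755 genes stood at 0 among the 9636 expected to reach 20 counts or more from the profile of every companion library. Fos and Jun were among its genes at 0, while Junb, Egr1 and Atf3 had 3009, 8774 and 1316 counts there. Zeros in that library were taken as missing and it was left out of every fit unless stated, so injured week 3 has n = 3. Levels are counts per 1000000 (CPM) on library totals scaled by TMM, and changes come from 1 edgeR quasi-likelihood fit of 27 libraries and 14282 genes, with Benjamini-Hochberg adjusted p called under 0.05. Symbols for other genes, among them the pathway partners and the cell type markers, were not paired with identifiers in the sources used here. The cell type label was therefore not checked against markers, and host cells were not measured. In such bulk samples more cells of a type and more RNA per cell cannot be told apart.

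All 5 genes were higher in every one of the 6 cord groups than in culture, and no cord library in the fit overlapped with a culture library for any of them. How many of all genes were without such overlap was not counted. The 5 of 5 called higher compare with 19.3%, 9.19% and 18.1% of all genes tested that were called higher in injured cord at weeks 2, 3 and 4, and with 20%, 26% and 26.3% in uninjured cord at the same weeks. The median log2 fold change of the 5 was 2.87, 2.40 and 3.83 in injured cord at weeks 2, 3 and 4, where that of all genes was -0.28, 0 and -0.01. In uninjured cord it was 2.65, 4.23 and 3.75, where that of all genes was -0.20, 0.01 and 0.05. These 6 comparisons share the 4 culture libraries, so they are not separate results. The cord libraries may also hold RNA of host tissue, whose part in the difference was not tested.

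**Figure D1:**
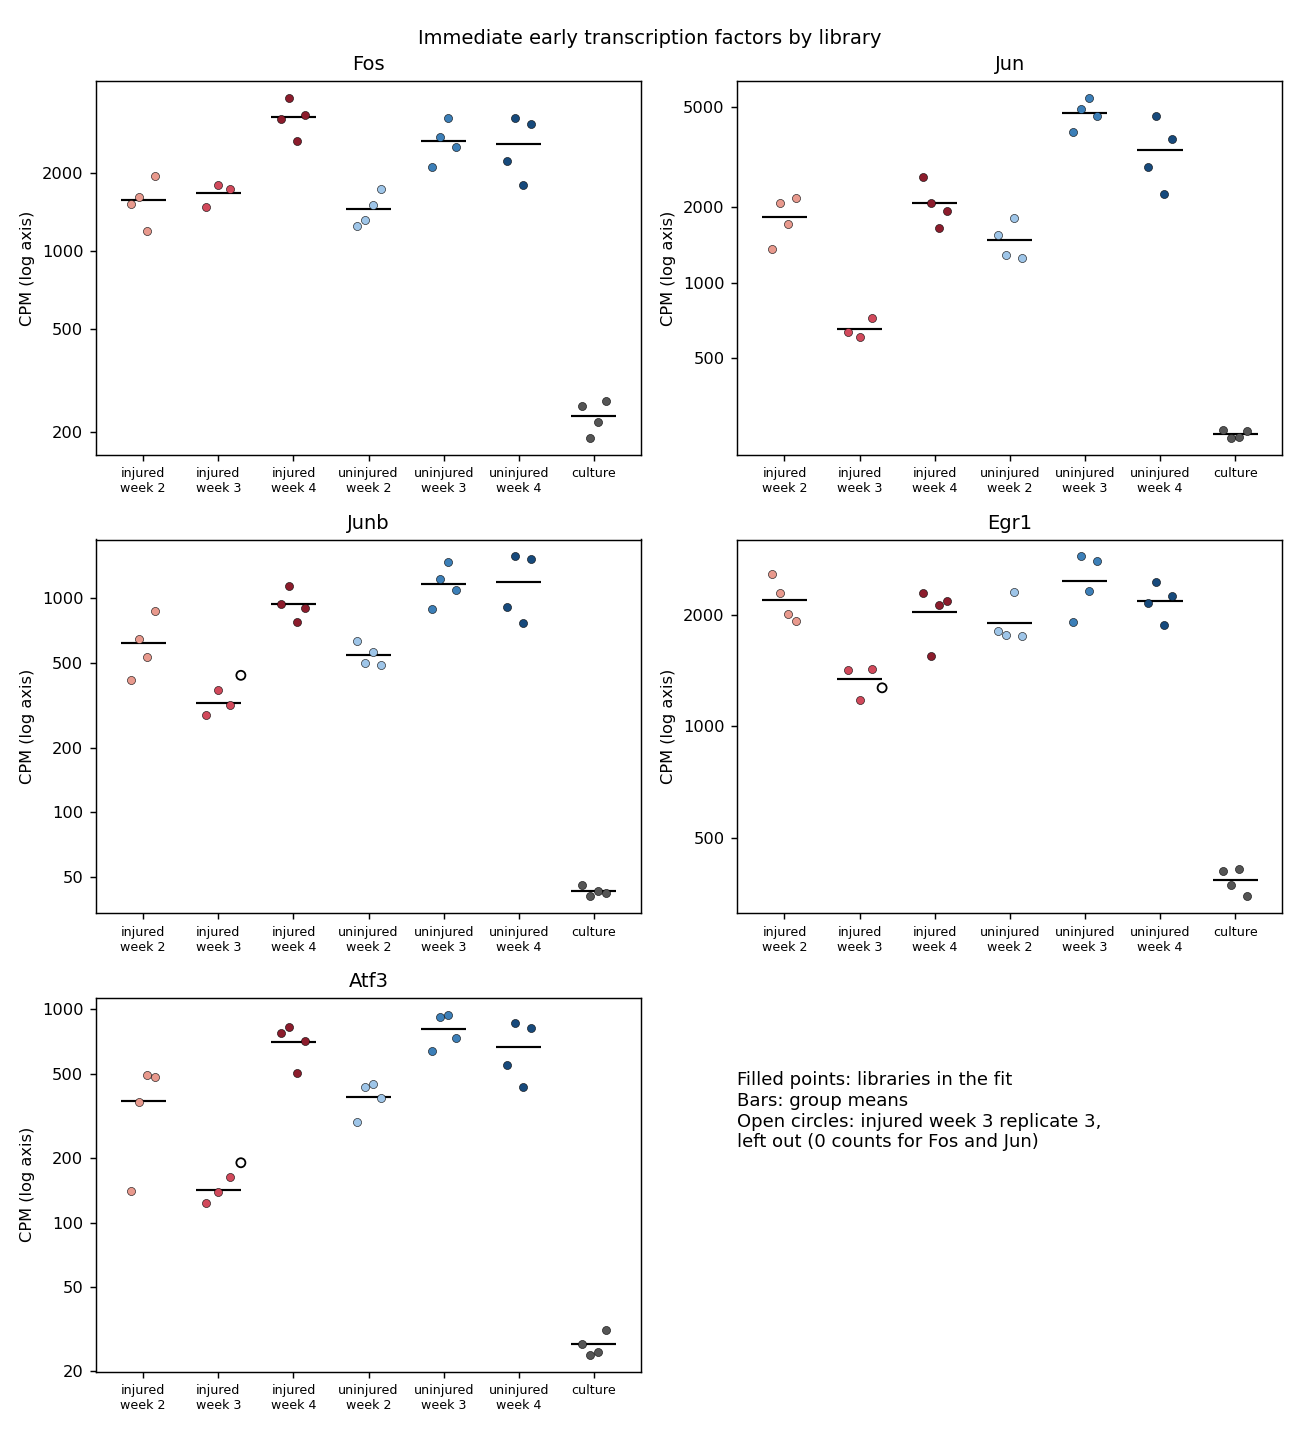
CPM of each gene on a log axis, 1 point per library and a bar at the group mean, for injured cord at weeks 2 to 4, uninjured cord at weeks 2 to 4 and culture. Culture is lowest in all 5 panels, and injured week 3 lies below uninjured week 3 in each. Open circles are injured week 3 replicate 3, which was left out. They are scaled by factors of all 28 libraries, and the filled points by factors of the 27 libraries fitted.

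Fos encodes the AP-1 subunit that needs a Jun partner. It stood at 1516, 1614, 1198 and 1947 CPM in injured week 2 libraries, at 1483, 1803 and 1741 CPM in injured week 3 libraries, and at 3222, 3895, 2658 and 3346 CPM in injured week 4 libraries. Uninjured libraries had 1246, 1311, 1506 and 1737 CPM at week 2, 2109.9, 2745, 3249 and 2523 CPM at week 3, and 2219, 3260.4, 1797 and 3083 CPM at week 4, and culture had 251, 189.6, 217 and 264 CPM. The highest mean was thus that of injured week 4, and the 6 cord groups followed one another with overlap between each pair of neighbours. Against culture the rise ran from 6.29-fold in uninjured week 2 (log2 fold change 2.65, SE 0.23, edgeR adjusted p = 5.76e-13) to 14.2-fold in injured week 4 (3.83, SE 0.24, edgeR adjusted p = 2.01e-17).

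Jun encodes the main partner of Fos in AP-1. Injured libraries had 1360.0, 2074, 1715 and 2178 CPM of Jun at week 2, 639.7, 607 and 722 CPM at week 3, and 2632, 2069, 1655 and 1936 CPM at week 4. Uninjured libraries had 1554, 1289, 1807 and 1257 CPM at week 2, 3966, 4880.3, 5420.4 and 4583 CPM at week 3, and 2873, 4606, 2251 and 3725 CPM at week 4, and culture had 261, 242, 243 and 257 CPM. Injured week 3 stood apart, above every culture library and below every other cord library. Jun was 2.62-fold higher in injured week 3 than in culture (log2 fold change 1.39, SE 0.23, edgeR adjusted p = 8.68e-06), and in uninjured week 3 it was 18.8-fold higher than in culture (4.23, SE 0.24, edgeR adjusted p = 7.86e-19).

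Junb encodes a second Jun protein. It had 416, 644, 532 and 871 CPM in injured week 2 libraries, 285, 374 and 317 CPM in injured week 3 libraries, and 936, 1143, 770.2 and 897 CPM in injured week 4 libraries. Uninjured libraries had 627, 498, 559 and 488 CPM at week 2, 886, 1222, 1468 and 1087 CPM at week 3, and 910.1, 1563, 768 and 1525 CPM at week 4, and culture had only 46.0, 40.6, 42.9 and 42.1 CPM. Injured week 3 again lay between culture and all other cord groups, with no overlap on either side. The difference from culture was 7.58-fold in injured week 3 (log2 fold change 2.92, SE 0.26, edgeR adjusted p = 1.16e-11) and 27.7-fold in uninjured week 4 (4.79, SE 0.28, edgeR adjusted p = 1.43e-18).

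Atf3, the stress response factor, had 141, 367, 493 and 484 CPM in injured week 2 libraries, 123.8, 139.6 and 163 CPM in injured week 3 libraries, and 773, 827, 502 and 712 CPM in injured week 4 libraries. Uninjured libraries had 295, 433, 447 and 384 CPM at week 2, 638, 921, 942 and 737 CPM at week 3, and 551, 868, 433 and 816 CPM at week 4, and culture had 26.9, 23.96, 24.8 and 31.4 CPM. The low injured week 2 library is replicate 1, the shallowest of the series, and it falls among the injured week 3 libraries. Atf3 was 5.29-fold higher in injured week 3 than in culture (log2 fold change 2.40, SE 0.29, edgeR adjusted p = 1.28e-08) and 30.2-fold higher in uninjured week 3 than in culture (4.91, SE 0.31, edgeR adjusted p = 8.72e-18).

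Egr1, the zinc finger factor, varied least among the cord groups by the ratio of its highest to its lowest mean. Injured libraries had 2579, 2296, 2009.7 and 1925 CPM at week 2, 1423, 1177 and 1432 CPM at week 3, and 2299.6, 1547, 2133 and 2189.6 CPM at week 4. Uninjured libraries had 1812, 1762, 2306 and 1753 CPM at week 2, 1919, 2883, 2320.2 and 2800.2 CPM at week 3, and 2162, 2463, 1878 and 2254 CPM at week 4, and culture had 406, 371, 411 and 347 CPM. Only injured week 3 was separated from the other cord groups, which overlapped in the order of their means. The rise over culture was 3.50-fold in injured week 3 (log2 fold change 1.81, SE 0.21, edgeR adjusted p = 9.67e-09) and 6.46-fold in uninjured week 3 (2.69, SE 0.21, edgeR adjusted p = 8.36e-15).

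At week 3 all 5 genes were lower in injured than in uninjured cord, and for none did the 3 injured libraries overlap with the 4 uninjured ones. The share of all genes without such overlap was not counted. The 5 of 5 called lower compare with 25.3% of all genes, and the median log2 fold change of the 5 was -1.84 where that of all genes was 0.01. Jun averaged 656 ± 59.2 CPM in injured cord (SD, n = 3) and 4712 ± 606 CPM in uninjured cord (SD, n = 4), which is 7.18-fold lower (log2 fold change -2.84, SE 0.26, edgeR adjusted p = 1.07e-12). Atf3 averaged 142 ± 19.5 CPM in injured and 809 ± 147 CPM in uninjured cord and was 5.70-fold lower (-2.51, SE 0.31, edgeR adjusted p = 2.77e-09). Junb averaged 326 ± 45.2 CPM in injured and 1166 ± 244 CPM in uninjured cord and was 3.58-fold lower (-1.84, SE 0.27, edgeR adjusted p = 1.78e-07). These 3 falls were called in each of the 8 alternative fits and in all 27 fits that left out 1 library. Among the 8, the fit of all 28 libraries took Jun as 0 in the incomplete library, which itself lowers injured week 3. Its call of Jun thus lends no support. The 27 fits include those that left out libraries of other groups.

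The week 3 differences of Egr1 and Fos were smaller. Egr1 averaged 1344 ± 145 CPM in injured (SD, n = 3) and 2481 ± 449 CPM in uninjured cord (SD, n = 4), with a log2 fold change of -0.88 (SE 0.22, edgeR adjusted p = 0.000775). Without injured week 3 replicate 2 it was -0.57 and not called (edgeR adjusted p = 0.0560, the highest of the 27 such fits). Fos averaged 1676 ± 169.7 CPM in injured and 2657 ± 475 CPM in uninjured cord, with a log2 fold change of -0.66 (SE 0.23, edgeR adjusted p = 0.0175). The call of Fos rested on the fit. It held in 4 of 8 alternatives, whose adjusted p ran from 0.000138 to 0.426, and in 18 of 27 fits without 1 library. The 0.426 came from the fit of all 28 libraries (log2 fold change -0.92, SE 0.83), which took Fos as 0 in the incomplete library. The call of Fos was lost without injured week 3 replicate 1, 2 or 4, uninjured week 3 replicate 3, injured week 4 replicate 1 or 4, or culture replicate 2, 3 or 4, with log2 fold changes of -0.60 to -0.42 and edgeR adjusted p of 0.0535 to 0.197. The week 4 and culture libraries are not in this comparison. Without any 1 of those named the log2 fold change was -0.54, and the cause of that common step was not tested. RLE factors in place of TMM moved the median of all genes at week 3 up by 0.25 on the log2 scale, and Fos with it to -0.41.

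**Figure D2:**
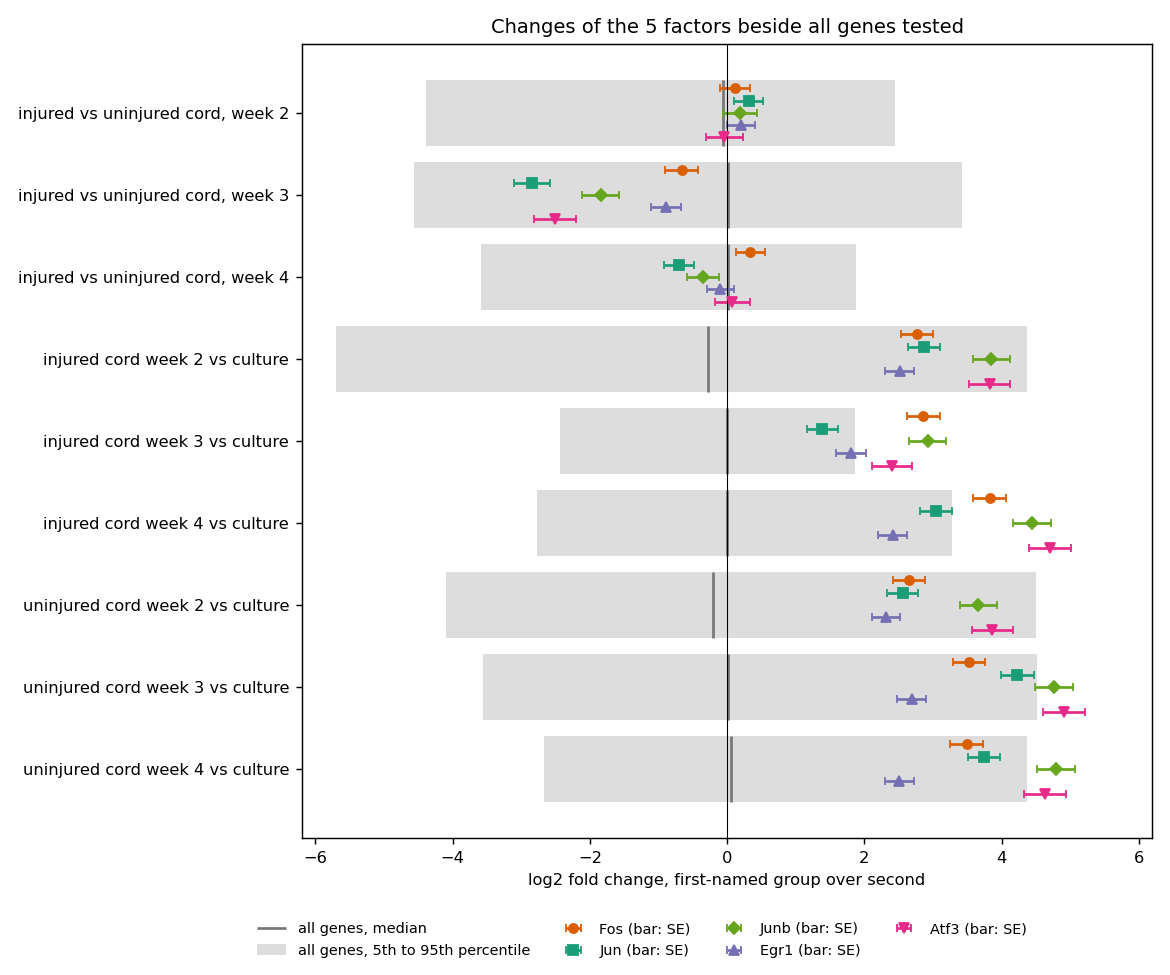
Log2 fold change of each gene with its standard error in 9 comparisons, the first-named group over the second, on a grey band from the 5th to the 95th percentile of all 14282 genes with a line at their median. All points lie right of 0 against culture and left of 0 for injured against uninjured cord at week 3, and they straddle 0 at weeks 2 and 4.

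At week 4, 1 of the 5 genes was called between injured and uninjured cord in the main fit. Jun was called lower, as were 15.2% of all genes. Jun averaged 2073 ± 410.4 CPM in injured cord and 3364 ± 1025 CPM in uninjured cord (SD, n = 4 each), 1.62-fold lower (log2 fold change -0.70, SE 0.21, edgeR adjusted p = 0.0111), although the groups overlapped. Without uninjured week 4 replicate 2, which had the most Jun of its group, the log2 fold change was -0.55 and was not called (edgeR adjusted p = 0.0559, against 0.00151 to 0.0559 over the 27 such fits). Jun was called in 7 of 8 alternatives, and was lost with all 28 libraries (-0.72, edgeR adjusted p = 0.653). Fos averaged 3280.1 ± 508 CPM in injured and 2589.7 ± 698 CPM in uninjured cord, a log2 fold change of 0.34 (SE 0.21, edgeR adjusted p = 0.256). The log2 fold changes of Junb, Egr1 and Atf3 were -0.35 (SE 0.24), -0.10 (SE 0.20) and 0.08 (SE 0.26), with edgeR adjusted p of 0.300, 0.762 and 0.871. Junb was called lower in 1 of 8 alternatives, with limma (-0.48, SE 0.14, adjusted p = 0.00593).

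At week 2, 0 of the 5 genes were called between injured and uninjured cord, where 3.37% of all genes were (edgeR; 0 of the 5 at an unadjusted p under 0.05, and 0 by DESeq2 or limma). Their log2 fold changes were 0.11 for Fos (SE 0.22), 0.31 for Jun (SE 0.22), 0.19 for Junb (SE 0.24), 0.20 for Egr1 (SE 0.20) and -0.04 for Atf3 (SE 0.27). The edgeR standard errors were close to those of week 4, but all groups share the estimate of spread in that fit. They do not by themselves show that the shallow week 2 libraries were measured as well. With limma, 0 of all genes were called at week 2 and 6557 at week 4, where edgeR called 481 and 3895.

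The effect of injury itself was compared between weeks. Its log2 value was greater at week 4 than at week 3 by 2.59 for Atf3 (SE 0.39, edgeR adjusted p = 1.69e-06), 2.15 for Jun (SE 0.32, edgeR adjusted p = 1.35e-06), 1.49 for Junb (SE 0.35, edgeR adjusted p = 0.00128) and 1.01 for Fos (SE 0.32, edgeR adjusted p = 0.0186). These 4 of 5 compare with 11.5% of all genes called in that direction. Egr1 missed the threshold at 0.78 (SE 0.29, edgeR adjusted p = 0.0539), and passed it without injured week 2 replicate 1 or 4, uninjured week 2 replicate 1 or 3, or injured week 4 replicate 2 (edgeR adjusted p of 0.0252 to 0.0498). It was also called in 3 of 8 alternatives, with limma (0.88, adjusted p = 4.08e-05), with depth as a covariate (0.81, edgeR adjusted p = 0.0357) and without the week 2 libraries (0.79, edgeR adjusted p = 0.0205). The Fos difference was called in 4 of 8 alternatives. It was lost with RLE factors (0.77, edgeR adjusted p = 0.0779), no low count filter (0.79, edgeR adjusted p = 0.0843) and unscaled totals (0.68, edgeR adjusted p = 0.107). It was lost as well with all 28 libraries, where Fos was taken as 0 in the incomplete library (1.24, edgeR adjusted p = 0.639). It was also lost in 10 of 27 fits without 1 library, namely without injured week 3 replicate 1, 2 or 4, uninjured week 3 replicate 3, injured week 4 replicate 1 or 4, uninjured week 4 replicate 3, or culture replicate 2, 3 or 4, at 0.73 to 0.94 with edgeR adjusted p of 0.0506 to 0.122. Culture is not in this comparison, and without any 1 of those culture libraries the value was 0.86.

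From week 2 to week 3 the effect of injury moved the other way. The differences were -3.16 for Jun (SE 0.33, edgeR adjusted p = 2.37e-10), -2.47 for Atf3 (SE 0.40, edgeR adjusted p = 3.89e-06), -2.03 for Junb (SE 0.36, edgeR adjusted p = 1.77e-05) and -1.09 for Egr1 (SE 0.29, edgeR adjusted p = 0.00378). These 4 of 5 compare with 17.7% of all genes called in that direction. Fos was at -0.78 (SE 0.32, edgeR adjusted p = 0.0582), and was called without injured week 2 replicate 1 (-0.82, edgeR adjusted p = 0.0395) or 3 (-0.89, edgeR adjusted p = 0.0332), with depth as a covariate (-0.78, edgeR adjusted p = 0.0499) and with unscaled totals (-0.83, edgeR adjusted p = 0.0326). Egr1 was not called without injured week 3 replicate 2 (-0.78, edgeR adjusted p = 0.0570).

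Within injured cord all 5 genes were higher at week 4 than at week 3, where 13.8% of all genes were called higher. For none of the 5 did the libraries of the 2 weeks overlap, and the share of all genes without overlap was not counted. The rise was 4.95-fold for Atf3 (log2 fold change 2.31, SE 0.30, edgeR adjusted p = 6.14e-08), 3.16-fold for Jun (1.66, SE 0.24, edgeR adjusted p = 5.88e-07) and 2.88-fold for Junb (1.52, SE 0.27, edgeR adjusted p = 1.52e-05). Fos was 1.96-fold higher (0.97, SE 0.24, edgeR adjusted p = 0.00162). Egr1 was 1.52-fold higher (0.60, SE 0.22, edgeR adjusted p = 0.0384), a call that held in 5 of 8 alternatives and in 13 of 27 fits without 1 library. It was lost with RLE factors (0.44, edgeR adjusted p = 0.129), no low count filter (0.41, edgeR adjusted p = 0.303) and unscaled totals (0.28, edgeR adjusted p = 0.370). The 14 libraries whose absence ended it were injured week 3 replicates 1, 2 and 4, injured week 4 replicates 1, 3 and 4, uninjured week 2 replicate 4, uninjured week 3 replicates 1 and 3, uninjured week 4 replicates 2 and 3, and culture replicates 2, 3 and 4, with log2 fold changes of 0.33 to 0.64 and edgeR adjusted p of 0.0808 to 0.389. The uninjured and culture libraries are not in this comparison. Without any 1 of those named the log2 fold change was 0.464 to 0.466, a common step from the main value whose cause was not tested. In uninjured cord 0 of 5 genes were called between week 4 and week 3, where 0.525% of all genes were (edgeR; Jun alone had an unadjusted p under 0.05, at 0.0279). DESeq2 called 0 of the 5 and 722 of all 14282 genes, and limma 1 of the 5 and 2828 of all genes, where edgeR called 75, and 2 to 161 when 1 library was left out. The uninjured log2 fold changes ran from -0.49 for Jun (SE 0.21, edgeR adjusted p = 0.283) to 0.03 for Junb (SE 0.23, edgeR adjusted p = 0.979).

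Between week 3 and week 2 the 2 conditions moved apart. In injured cord 4 of 5 genes were lower at week 3, where 20% of all genes were. They were Jun at -1.48 (SE 0.24, edgeR adjusted p = 3.12e-06), Atf3 at -1.42 (SE 0.30, edgeR adjusted p = 0.000149), Junb at -0.93 (SE 0.26, edgeR adjusted p = 0.00394) and Egr1 at -0.71 (SE 0.22, edgeR adjusted p = 0.00734) on the log2 scale. Fos was at 0.10 (SE 0.23, edgeR adjusted p = 0.761). Without injured week 3 replicate 2, Egr1 was at -0.53 and not called (edgeR adjusted p = 0.0788). In uninjured cord 4 of 5 genes were higher at week 3, where 12.2% of all genes were. They were Jun at 1.67 (SE 0.22, edgeR adjusted p = 1.14e-06), Junb at 1.10 (SE 0.24, edgeR adjusted p = 0.00121), Atf3 at 1.05 (SE 0.27, edgeR adjusted p = 0.00480) and Fos at 0.87 (SE 0.22, edgeR adjusted p = 0.00372), which was 0.57 and not called without uninjured week 3 replicate 3 (edgeR adjusted p = 0.0629). Egr1 was at 0.38 (SE 0.20, edgeR adjusted p = 0.173). The uninjured changes moved with the scaling, since the median of all genes was 0.30 with TMM and -0.11 with RLE factors. Fos was called in 3 of 7 alternatives and was 0.45 with RLE factors (edgeR adjusted p = 0.154) and 0.45 with DESeq2 (adjusted p = 0.0989). Atf3 was called in 4 of 7, and was 0.63 with RLE factors (edgeR adjusted p = 0.0748) and 1.05 with limma (adjusted p = 0.0514). Week and depth cannot be told apart here. When the fit took depth into account by a covariate, 2 of 5 genes were called in injured cord and 0 of 5 in uninjured cord. Of the calls lost, Junb in injured cord stood at -1.55 (SE 0.59) and Egr1 at -0.35 (SE 0.46). In uninjured cord Fos stood at 0.80 (SE 0.52), Jun at 0.92 (SE 0.50), Junb at 0.44 (SE 0.61) and Atf3, with its sign turned, at -0.80 (SE 0.65), all with larger standard errors than without the covariate.

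The balance between Fos and Jun was then read as the ratio of their counts within each library, which no scaling factor can change. This measure was chosen after the values were seen and carries no test, and since the 2 transcripts differ in length it is not a ratio of molecules. At week 3 there were 2.32, 2.97 and 2.41 counts of Fos per count of Jun in injured libraries, against 0.532, 0.562, 0.599 and 0.550 in uninjured libraries. At week 4 there were 1.22, 1.88, 1.61 and 1.73 in injured libraries, against 0.772, 0.708, 0.798 and 0.828 in uninjured libraries. Every injured library of weeks 3 and 4 thus lay above every uninjured library of those weeks and above culture, which had 0.963, 0.784, 0.894 and 1.03. At week 2 the groups overlapped, with 1.11, 0.779, 0.698 and 0.894 in injured and 0.802, 1.02, 0.833 and 1.38 in uninjured libraries. Injured libraries also lay above uninjured ones at weeks 3 and 4 for Fos over Junb and Fos over Atf3. Fos over Junb was 4.82 to 5.49 against 2.21 to 2.38 at week 3, and 3.41 to 3.73 against 2.02 to 2.44 at week 4. Fos over Atf3 was 10.7 to 12.9 against 2.98 to 3.45, and 4.17 to 5.30 against 3.76 to 4.15. For Fos over Egr1 the conditions overlapped at both weeks.

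The ratio of Jun to Junb counts, also picked from all pairs after the values were seen and not tested, separated culture from all cord libraries. It was 2.05 ± 0.369 in injured week 3 (SD, n = 3), 2.23 ± 0.418 in injured week 4, 4.10 ± 0.333 in uninjured week 3, 2.87 ± 0.302 in uninjured week 4 and 5.84 ± 0.212 in culture (SD, n = 4 each). Culture libraries ran from 5.67 to 6.09 and the highest cord library was at 4.48, in uninjured week 3. Week 2 means were 3.05 ± 0.370 in injured and 2.72 ± 0.346 in uninjured cord (SD, n = 4 each), and their libraries overlapped. The ratio of Junb to Egr1 counts separated culture as well, at 0.104 to 0.121, where the lowest cord library was at 0.161, in injured week 2.

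**Figure D3:**
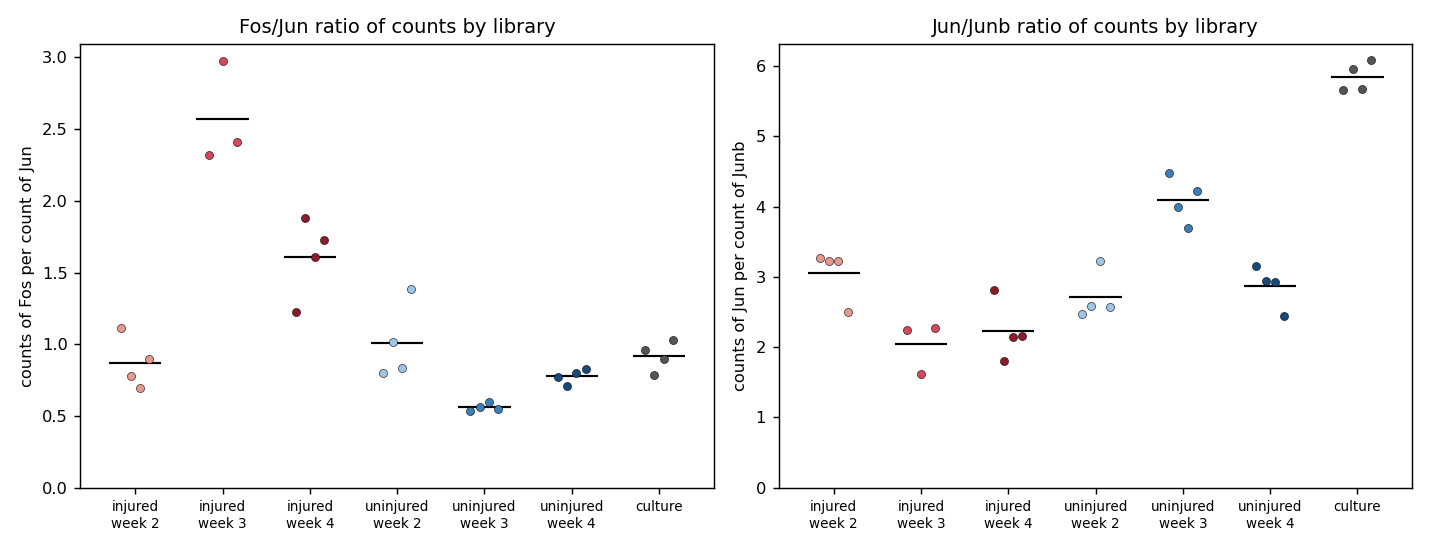
Counts of Fos per count of Jun and counts of Jun per count of Junb in each library, with a bar at the group mean and axes from 0. Injured week 3 has the highest Fos/Jun ratios, from 2.32 to 2.97, and culture has the highest Jun/Junb ratios, from 5.67 to 6.09.

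Together the 5 genes took up 0.804 ± 0.127%, 0.428 ± 0.0295% and 0.737 ± 0.0723% of all counts in injured cord at weeks 2, 3 and 4 (SD, n = 4, 3 and 4). In uninjured cord the share was 0.627 ± 0.0950%, 1.14 ± 0.145% and 0.941 ± 0.205% at the same weeks, and in culture 0.0909 ± 0.00337% (SD, n = 4 each). On this unscaled measure too, every injured week 3 library, with 0.403% to 0.461%, lay below every other cord library and above every culture library. Within uninjured week 4 the spread was shared among genes. Replicates 2 and 4 were the 2 highest and replicate 3 the lowest for each of the 5 genes, so the libraries of that group differed from one another in all 5 genes at once.

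**Figure D4:**
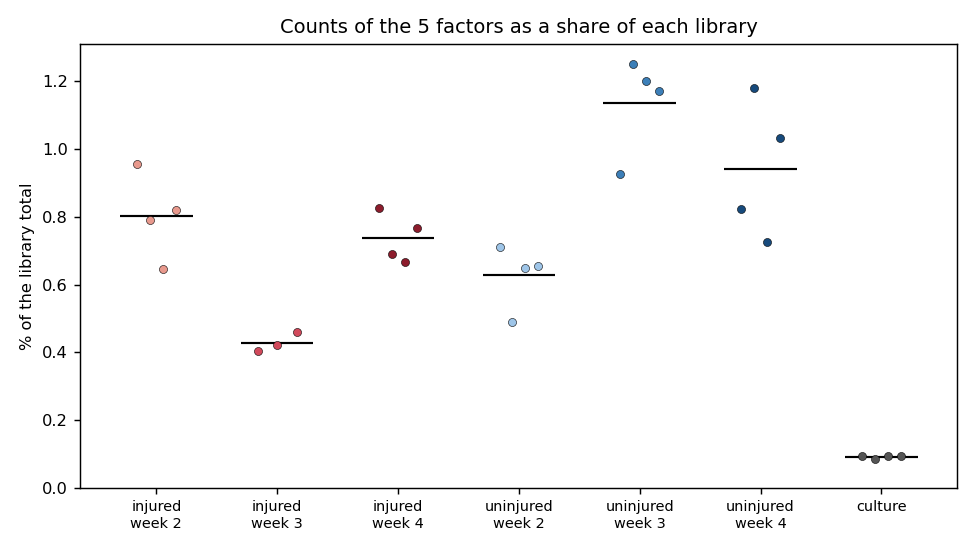
Summed counts of the 5 genes as a percentage of the deposited total of each library, 1 point per library with a bar at the group mean. Shares run from 0.403% to 0.461% in injured week 3, from 0.926% to 1.25% in uninjured week 3 and from 0.0858% to 0.0927% in culture.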

How the data were processed

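The authors deposited raw, unnormalized counts for each gene and library in a single table. RNA came from a Trizol extraction with DNase digestion and went into a stranded kit for very low input, per the labels' protocols. Among tools, the submitters' processing notes name STAR 2.5.1 and featureCounts 1.5.1, and the build they name is GRCm38, of mouse, although the identifiers are rat. The annotation, the strand setting and the treatment of duplicates or shared reads are not given, so counts of overlapping or similar genes are uncertain.

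Differential expression used edgeR 4.0.16 (quasi-likelihood, robust, TMM, filterByExpr by group) with a mean for each of 7 groups, 27 libraries, 14282 genes and 20 residual degrees of freedom. It gave 15 comparisons, each adjusted by Benjamini-Hochberg over all genes. The standard error is the log2 fold change divided by the root of F. Alternatives were RLE factors, DESeq2 1.42.0, limma 3.58.1 (voom with quality weights), no low count filter, library depth as covariate, all 28 libraries, no week 2 libraries and leaving out each library in turn. Unscaled totals were added after seeing the data. Fits were tested on simulated data. The members, lists and tests were chosen with earlier results of these data known, among them that 1 library is incomplete. Of the table's identifiers 0 matched a symbol in the RefSeq table, so 14 lists of 178 partner and marker genes, and a search for genes of like pattern, were not analysed here. The named genes are the 5 members. Replicate numbers follow accession order and pair no samples.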

Additional observations from a re-analysis of the deposited data

Results flagged for a closer look

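The change in the effect of injury between weeks was the main pattern that called for a closer look. Tested as a difference of differences in the edgeR fit, the week 4 effect exceeded the week 3 effect by 1.01 for Fos, 2.15 for Jun, 1.49 for Junb and 2.59 for Atf3 on the log2 scale. The week 3 effect differed from the week 2 effect by -3.16 for Jun, -2.03 for Junb, -1.09 for Egr1 and -2.47 for Atf3. Both sets share the week 3 libraries, of which 3 are injured, so the 2 sets are not separate results.

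The library left out of the fits, injured week 3 replicate 3, still held counts for 3 of the genes. On factors fitted with all 28 libraries it had 436 CPM of Junb, 1272 CPM of Egr1 and 191 CPM of Atf3. The other libraries were kept on the factors of the 27 libraries fitted, so the scalings differ. Set side by side, all 3 values lay above every culture library. The Egr1 value lay within the 1177 to 1432 CPM of the other injured week 3 libraries. The Junb and Atf3 values lay above theirs and below every uninjured week 3 library. On unscaled totals the same library had 833 CPM of Junb, 2428 CPM of Egr1 and 364 CPM of Atf3. All 3 then lay above the other injured week 3 libraries, Egr1 lay among the uninjured week 3 libraries at 1867 to 2853 CPM, and Junb and Atf3 lay below theirs. Its levels thus depend on the scaling of an incomplete library.

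In uninjured week 2, replicate 3 stood apart for Egr1 at 2306 CPM where the others had 1753 to 1812 CPM. Its gap was 0.894 of the group's range, above the limit of 0.829 for 4 values. Of 30 groups of 4 values examined, chance alone would mark about 1.5.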

How the results depend on the processing

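The week 3 falls of Jun, Junb and Atf3, their injury effects of week 3 over week 2, and the rises of Junb and Atf3 in injured cord for week 4 over week 3 were called in every alternative that could be fitted and without any 1 library. With all 28 libraries the 0 of Jun in the incomplete library was taken as a value, which itself lowers injured week 3. The Jun calls of that fit thus lend no support. All 5 genes were called higher than culture in every alternative, except with all 28 libraries, where Fos and Jun at 0 in the incomplete library left 3 of 5 called in injured week 3. That fit also left 3 of 5 called in injured cord for week 4 over week 3, 2 of 5 in uninjured cord for week 3 over week 2, 2 of 5 for the injury effect of week 4 over week 3, and 0 of 5 for injured over uninjured cord at week 4. RLE factors left 2 of 5 in uninjured cord for week 3 over week 2. The depth covariate left 2 of 5 in injured cord and 0 of 5 in uninjured cord for week 3 over week 2. limma called 2 of 5 for injured over uninjured cord at week 4 and 1 of 5 in uninjured cord for week 4 over week 3.

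Leaving out 1 library gave 3 to 5 of 5 called for injured over uninjured cord at week 3, the lowest without injured week 3 replicate 2, and 0 to 1 at week 4, the 0 without uninjured week 4 replicate 2. The genes called in uninjured cord for week 4 over week 3 ranged from 2 to 161.

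Signs turned only for log2 fold changes that were not called, except Atf3 in uninjured cord for week 3 over week 2, at -0.80 with the depth covariate. Fos in uninjured cord for week 4 over week 3 was 0.046 with RLE factors, 0.046 with DESeq2 and 0.061 with limma. Fos in injured cord for week 3 over week 2 was -0.13 with RLE factors, -0.13 with DESeq2, -0.37 with all 28 libraries and -0.15 with unscaled totals. Egr1 in uninjured cord for week 3 over week 2 was -0.045 with RLE factors and -0.046 with DESeq2. Atf3 for injured over uninjured cord was 0.000191 with limma and 0.071 with unscaled totals at week 2, and -0.050 with limma and -0.14 with unscaled totals at week 4. Leaving out 1 library turned 19 such values. Over those fits Fos ran from -0.0100 to 0.23, Junb from -0.023 to 0.33 and Atf3 from -0.19 to 0.20 for injured over uninjured cord at week 2, and Egr1 from -0.19 to 0.018 and Atf3 from -0.10 to 0.19 at week 4. Fos ran from -0.078 to 0.21 in injured cord for week 3 over week 2, and in uninjured cord for week 4 over week 3 Fos ran from -0.14 to 0.11 and Junb from -0.11 to 0.20.

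Counts over all genes moved more. For injured over uninjured cord at week 2, where the edgeR fit called 481, DESeq2 called 1543, limma 0 and the fit of all 28 libraries 300. At week 4 (3895) limma called 6557, all 28 libraries gave 2396 and leaving out week 2 gave 6269. For injured cord, week 4 over week 3 (3078), DESeq2 called 4773, limma 5952 and the fit without week 2 5435. For uninjured cord, week 4 over week 3 (75), DESeq2 called 722, limma 2828, no filter 374, all 28 libraries 0 and the fit without week 2 1619. For the injury effect of week 4 over week 3 (2674), DESeq2 called 4125, limma 5217 and the fit without week 2 4629, and for week 3 over week 2 (4340) limma called 2709. Against culture, injured week 3 (2744) had 6511 with limma and 5046 without week 2, injured week 4 (4801) had 8625 with limma, and with the depth covariate injured week 2 (6422) had 1166 and uninjured week 2 (6010) had 1056. For week 3 over week 2, the depth covariate called 1731 in injured cord (6386) and 2 in uninjured cord (2903), where limma called 1704 and all 28 libraries 1339. Apart from what fewer samples or zeros in the incomplete library set, the cause was not tested.

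The week 2 libraries are shallow, and a change of week there cannot be told apart from a change of depth. No paired analysis was possible because the labels give the samples no shared replicate numbers.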
